A study of Mus musculus with 103 samples.

Results

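The aortic arch of ApoE knockout mice was compared with that of wild-type mice after 3 weeks of vehicle, the earliest of the study's sampling times. The comparison held 16 libraries, 8 labelled ApoE-KO_Vehicle_day22 and 8 labelled WT_Vehicle_day22, while the other 10 groups of the series held 87. It took in the 13217 genes whose level reached 1 in 5 or more of these 16 libraries. The knockout mice carried the ApoE KO on C57BL/6, and the wild-type mice were C57BL/6 from the same supplier. All were females without ovaries, removed at 7 to 8 weeks of age, that had eaten a diet with 42% of calories from fat since an age of 5 to 6 weeks. Weekly subcutaneous vehicle, a sodium acetate and sucrose buffer, began at 9 to 10 weeks, and the mice were 12 to 13 weeks old on day 22. Each library came from 1 animal. The wild-type mice thus shared the fat-rich diet and the loss of ovarian hormones. The arch was flushed and its outer fat was wiped away, but brown and white fat, heart muscle and thymus lie against it and can be carried into a library.

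Apolipoprotein E is the ligand by which the liver clears remnant lipoproteins. Without it cholesterol-rich particles build up in plasma and enter the arterial intima, where activated endothelium captures monocytes. These become macrophages, engulf the lipid and turn into foam cells, which digest it in lysosomes and export cholesterol through pumps induced by the oxysterol receptor LXR. The arch is a site where such lesions form early in mice.

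Levels are the deposited FPKQ, an FPKM-type value per gene whose scaling the labels do not define. Changes are differences of mean log2(FPKQ + 1), knockout minus wild type, ± their standard error from limma, and the offset of 1 makes the change of a low gene smaller than the ratio of its levels. Adjusted p-values are limma's, two-sided, with Benjamini-Hochberg adjustment over all 13217 genes, and a gene was called at an adjusted p under 0.05. In all 1580 genes were called, 12.0% of those tested, 716 higher (5.42%) and 864 lower (6.54%) in the knockout, and the median change of all genes was -0.02. The excess of lower calls depended on the scaling, with 762 higher (5.77%) and 662 lower (5.01%) of 1424 calls (10.8%) after median-of-ratios rescaling, and 613 higher (4.64%) and 1107 lower (8.38%) of 1720 calls (13.0%) after quantile normalization. An exact rank-sum test per gene called 932 (7.05%), 467 higher (3.53%) and 465 lower (3.52%). The knockout and wild-type libraries did not overlap at all for 163 genes (1.23%). Some genes could enter the test through one genotype alone, since 808 of those tested reached 1 in fewer than 5 wild-type libraries and 519 in fewer than 5 knockout libraries.

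Read depth is unknown, and relative depth estimated from low values was 0.886 to 1.1 in knockout and 0.829 to 1.07 in wild-type libraries. The smooth muscle actin gene Acta2 was at least 3133 in every library, so arterial wall was present in all. Wild-type replicate 4 stood apart from its group. It had a median correlation of 0.904 with the other wild-type libraries and of 0.942 with the knockout libraries, and its summed smooth muscle genes were the lowest of all 16. Without it 3935 genes were called (29.8%; 11.8% higher and 18.0% lower), all 1580 among them. Without wild-type replicate 7 the count was 837, the lowest of all fits without 1 library, and without wild-type replicates 8, 5 and 3 it was 911, 944 and 946. Knockout replicate 7 was also slightly closer to the other genotype.

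Fat, heart and thymus transcripts varied widely among libraries of both genotypes. The 11 brown adipocyte genes summed to 176 at the lowest, 2326 at the median and 7532 at the highest in knockout libraries, against 147, 693 and 4677 in wild-type libraries. The extremes were knockout replicate 4 (lowest) and 1 (highest), and wild-type replicate 7 (lowest) and 4 (highest). Ucp1, the uncoupling protein of heat-producing fat, was 51.6, 888 and 3383 in the knockout and 49.2, 259.5 and 1736 in wild type, a change of 1.19 ± 0.87 (adjusted p = 0.359). Adipoq, the fat hormone adiponectin, was 35.3, 176 and 417 in the knockout and 14.9, 57.4 and 460.1 in wild type (1.07 ± 0.66, adjusted p = 0.279). The groups overlapped over most of their range in both genes. Of 11 brown adipocyte, 12 white adipocyte and 20 oxidative phosphorylation genes 0 were called, although their median changes were 0.98, 1.01 and 0.59 and those of the white adipocyte and oxidative phosphorylation lists were all positive.

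Heart and thymus transcripts were concentrated in a few libraries. Myh6, the alpha myosin heavy chain of heart muscle, was 0.102, 3.53 and 94.6 in the knockout and 0.294, 2.29 and 259 in wild type. Knockout replicates 1 and 8, at 94.6 and 32.9, and wild-type replicates 4 and 6, at 259 and 39.3 stood out in this gene. Of 12 cardiomyocyte genes tested 0 were called. The 14 thymocyte genes summed to 9.79, 27.9 and 71 in the knockout and 7.48, 12.7 and 69.4 in wild type, highest in knockout replicate 1 and wild-type replicate 4. Of these 14 genes 1 was at 0 and 7 were under 1 in all 16 libraries, and of the 5 tested 0 were called. Rag1, the recombinase of developing lymphocytes, did not reach the filter, with 0.00780, 0.109 and 0.825 in the knockout and 0, 0.0739 and 1.34 in wild type. Of 4 skeletal muscle genes Tnnt3, a fast troponin, fell by 0.52 ± 0.15 (adjusted p = 0.0349), a call kept in 7 of the 16 fits without 1 library. Without the 4 libraries with high heart or thymus scores, knockout replicates 1 and 8 and wild-type replicates 4 and 6, 2615 genes were called (19.8%). With the mean levels of 3 such lists as covariates 1989 genes were called, 8.17% higher and 6.88% lower. With those of 5 lists 248 were called (1.88%), 201 of them higher (1.52%) and 47 lower (0.356%).

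**Figure D1:**
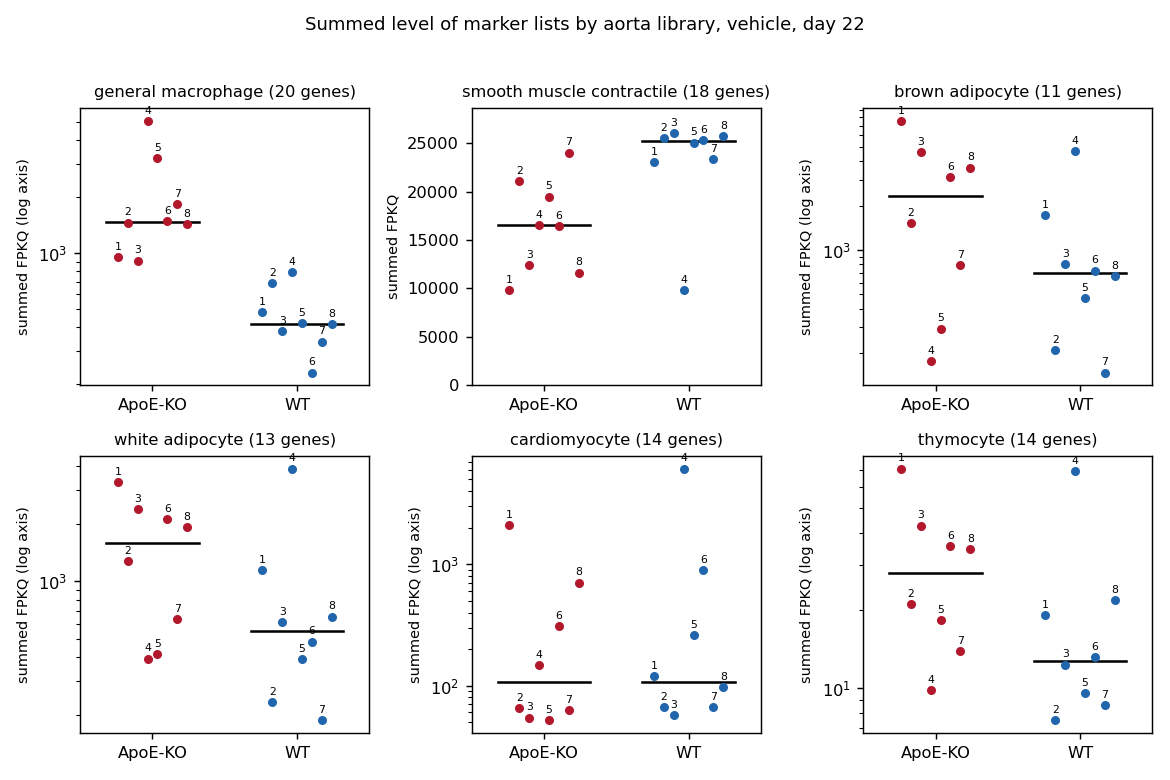
Summed FPKQ of 6 marker lists in each library of the ApoE-KO (left) and WT (right) groups, with replicate numbers beside the points and a bar at each group median; the smooth muscle axis is linear from 0 and the other axes are logarithmic. Macrophage sums run from 910.2 to 5073 in ApoE-KO and from 229.6 to 789 in WT libraries without overlap, whereas fat, heart and thymus sums overlap and WT replicate 4 is the lowest WT library in smooth muscle.

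Apoe itself was low in every knockout library. The gene lies at chr7:19696109-19699188 on the minus strand of GRCm38 and is protein-coding in GENCODE M21. It was 5.50, 8.40 and 10.1 in the knockout and 257, 360.5 and 482 in wild type. The change was -5.28 ± 0.15 (adjusted p = 5.86e-13), and wild-type replicate 4 had the highest level of all.

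Macrophage transcripts were among those that rose most. Of 20 general macrophage genes 16 rose and 0 fell, with a median change of 1.4, and of 18 foamy macrophage genes 13 rose and 0 fell, with a median of 2.28. Of these 18 foamy macrophage genes 4, Cd5l, Mmp12, Itgax and Atp6v0d2, reached 1 in no wild-type library. Of the 20 general macrophage genes 2 reached 1 in fewer than 5 wild-type libraries. In bulk tissue more cells of a type and more RNA per cell cannot be told apart. The 20 general macrophage genes summed to 910.2, 1465 and 5073 in the knockout and to 229.6, 418 and 789 in wild type. Knockout replicates 4 and 5, at 5073 and 3219.5, stood well above the other knockout libraries, which were at 1815 or below. With the 5 list levels as covariates 5 general macrophage and 10 foamy macrophage genes rose, and with 2 components of the clock genes, described further on, 0 and 4 did.

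Cd5l, a secreted protein that protects macrophages from death, had the largest change. It was 16.3, 66.9 and 364.5 in the knockout and 0, 0.0528 and 0.158 in wild type (6.10 ± 0.41, adjusted p = 2.86e-07). Every knockout library stood far above every wild-type one, and wild-type replicates 2, 5 and 7 were at 0. Mmp12, the elastin-cleaving protease of macrophages, was 8.83, 36.6 and 218 in the knockout and 0.248, 0.587 and 0.996 in wild type (4.59 ± 0.43, adjusted p = 2.53e-05). Atp6v0d2, a subunit of the lysosomal proton pump of macrophages and osteoclasts, was 3.25, 16.1 and 81.02 in the knockout and 0.0210, 0.0993 and 0.269 in wild type (3.94 ± 0.39, adjusted p = 5.15e-05). All 3 genes were lowest in knockout replicate 3, highest in knockout replicate 4, and separate from wild type in every library.

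Other members of the foamy macrophage list were split between calls and values that did not pass. Trem2, a lipid-sensing receptor of macrophages, was 7.62, 20.97 and 84.3 in the knockout and 0.743, 1.74 and 4.22 in wild type (2.89 ± 0.36, adjusted p = 0.000366). Gpnmb, a glycoprotein of lipid-stressed macrophages, was 24.5, 95.3 and 445 in the knockout and 4.78, 9.07 and 11.7 in wild type (3.33 ± 0.40, adjusted p = 0.000358). Neither gene overlapped between the genotypes. Spp1, the matrix phosphoprotein osteopontin, was 17.2, 91.7 and 1106 in the knockout and 1.36, 2.29 and 46.2 in wild type (4.21 ± 0.82, adjusted p = 0.00562). Here the groups overlapped, because wild-type replicates 1 and 2, at 27.5 and 46.2, lay far above the other 6 wild-type libraries. Lipa, the lysosomal lipase that splits cholesteryl esters, rose by 1.1 ± 0.16 (adjusted p = 0.00112) without overlap. Cd36, a scavenger receptor that adipocytes also express, and Fabp4, a fatty acid binding protein of adipocytes and macrophages, changed by 1.05 ± 0.57 (adjusted p = 0.226) and 1.07 ± 0.68 (adjusted p = 0.294). Both were highest in knockout replicate 1 and in wild-type replicate 4, the libraries of each genotype with the highest adipocyte sums. Cd9, a tetraspanin, changed by -0.31 ± 0.19 (adjusted p = 0.281).

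Genes of phagocytes in general followed the same libraries. Mpeg1, a pore-forming protein of phagocytes, was 16.2, 42.3 and 166 in the knockout and 2.14, 3.23 and 10.8 in wild type (3.27 ± 0.43, adjusted p = 0.000709). Lyz2, the lysozyme of myeloid cells, was 406, 766 and 2876 in the knockout and 83.6, 152 and 318 in wild type (2.53 ± 0.36, adjusted p = 0.00112). Cd68, a glycoprotein of phagocyte endosomes, had a median of 48.1 in the knockout and 6.27 in wild type. None of the 3 overlapped between genotypes, and all 3 were highest in knockout replicate 4 and in wild-type replicate 4. Itgax, the integrin CD11c, rose by 2.43 ± 0.37 (adjusted p = 0.0018). Ctss, the cysteine protease cathepsin S, was 80.4, 236 and 940.1 in the knockout and 11.2, 19.3 and 45.3 in wild type (3.47 ± 0.43, adjusted p = 0.000372), and with it 9 of 22 lysosome genes rose and 0 fell (median 0.29). Lcn2, an iron-scavenging protein of neutrophils and macrophages, was 7.46, 17.9 and 159.6 in the knockout and 0.346, 2.13 and 6.80 in wild type (2.82 ± 0.52, adjusted p = 0.0043), with knockout replicate 4 far above the other libraries. Of 12 resident adventitial macrophage genes 5 rose and 0 fell (median 0.46). Among them Ccl8, a monocyte attractant, was 9.49, 26.4 and 137.5 in the knockout and 0.680, 2.73 and 33.5 in wild type (2.75 ± 0.56, adjusted p = 0.0073), where wild-type replicate 4 alone overlapped. Folr2, a folate receptor of resident macrophages, rose by 0.75 ± 0.20 (adjusted p = 0.028), and Lyve1, the hyaluronan receptor of the same cells, changed by 0.44 ± 0.16 (adjusted p = 0.0763).

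**Figure D2:**
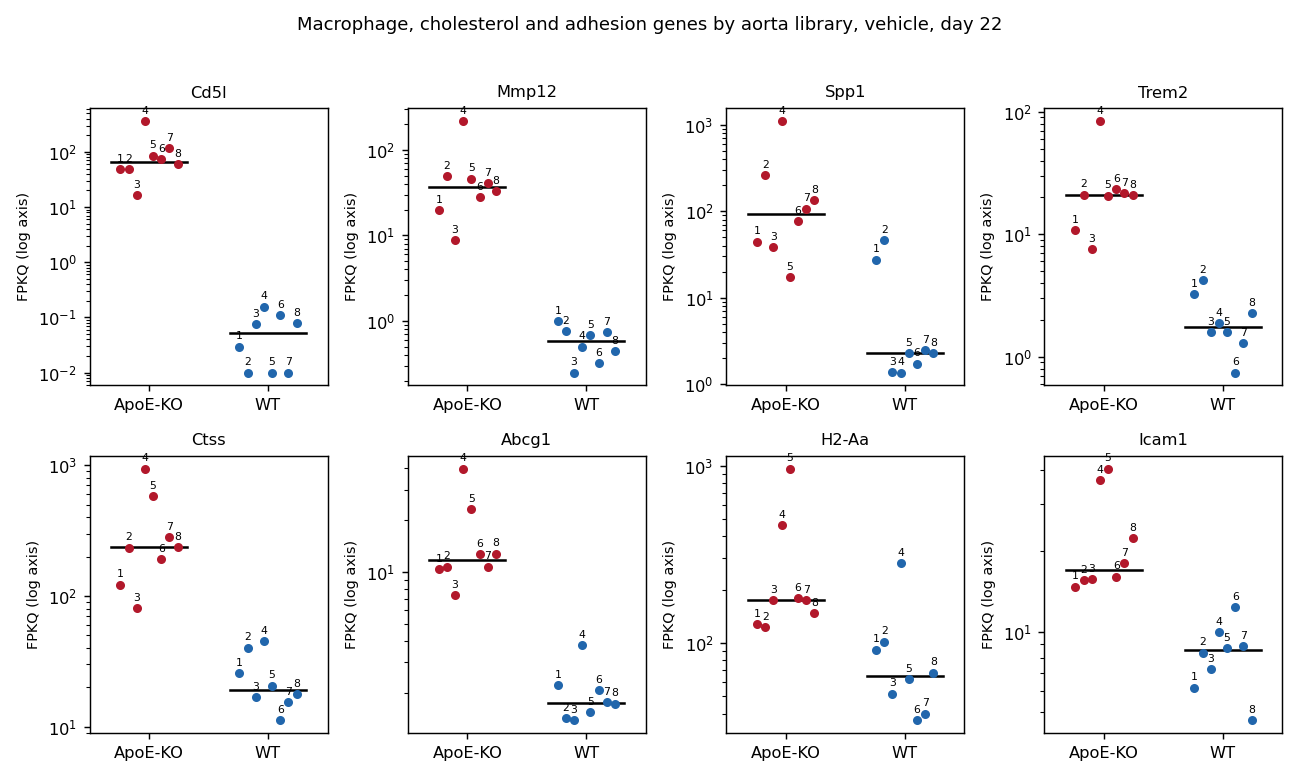
FPKQ of 8 macrophage, cholesterol export, antigen presentation and adhesion genes in each ApoE-KO (left) and WT (right) library on logarithmic axes, with replicate numbers beside the points and a bar at each group median; values of 0 are drawn at the foot of the axis. Cd5l, Mmp12, Trem2, Ctss, Abcg1 and Icam1 do not overlap between the genotypes, Spp1 overlaps through WT replicates 1 and 2, and H2-Aa overlaps through WT replicate 4.

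Promoters of 3 of these macrophage genes and of a pair of interferon-induced genes are shown for the motifs that such genes are known to carry. AGGAAGT is a core that transcription factors of the ETS family bind, the myeloid factor PU.1 among them, and GAAA, any 2 bases and GAAA again form a core of the interferon response element. Both strands were searched over the 300 bases from 250 before to 50 after the start in RefSeq, build GRCm38.p6, with matches to either core in capitals, and Mmp12 and Spp1 have 2 starts listed, of which 1 is shown. The regions are chr9:7344147-7344446 on the plus strand for Mmp12, chr3:95526536-95526835 on the plus strand for Ctss, chr5:104434861-104435160 on the plus strand for Spp1, chr4:156200769-156201068 on the minus strand for Isg15 and chr19:34583279-34583578 on the plus strand for Ifit3.
Mmp12: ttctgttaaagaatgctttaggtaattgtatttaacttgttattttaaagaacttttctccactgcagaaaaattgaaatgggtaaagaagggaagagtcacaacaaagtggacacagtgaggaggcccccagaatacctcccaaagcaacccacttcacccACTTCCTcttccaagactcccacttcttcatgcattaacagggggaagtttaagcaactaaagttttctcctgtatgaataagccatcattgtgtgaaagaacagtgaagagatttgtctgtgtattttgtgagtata
Ctss: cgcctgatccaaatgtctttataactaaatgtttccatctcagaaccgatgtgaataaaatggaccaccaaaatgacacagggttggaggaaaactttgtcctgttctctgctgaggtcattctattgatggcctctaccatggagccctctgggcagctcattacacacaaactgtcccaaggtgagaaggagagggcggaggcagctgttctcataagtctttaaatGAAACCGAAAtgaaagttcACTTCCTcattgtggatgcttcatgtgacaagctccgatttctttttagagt
Spp1: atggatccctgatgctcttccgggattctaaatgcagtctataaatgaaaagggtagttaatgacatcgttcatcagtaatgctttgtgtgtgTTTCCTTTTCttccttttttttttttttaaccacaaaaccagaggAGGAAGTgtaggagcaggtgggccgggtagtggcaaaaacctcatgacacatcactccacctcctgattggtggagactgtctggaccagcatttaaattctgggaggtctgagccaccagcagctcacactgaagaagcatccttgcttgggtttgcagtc
Isg15: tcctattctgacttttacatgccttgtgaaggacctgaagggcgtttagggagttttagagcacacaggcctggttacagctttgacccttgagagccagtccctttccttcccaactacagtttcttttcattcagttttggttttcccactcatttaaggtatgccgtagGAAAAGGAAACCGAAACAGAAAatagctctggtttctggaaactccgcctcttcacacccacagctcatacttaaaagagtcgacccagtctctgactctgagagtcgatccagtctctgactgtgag
Ifit3: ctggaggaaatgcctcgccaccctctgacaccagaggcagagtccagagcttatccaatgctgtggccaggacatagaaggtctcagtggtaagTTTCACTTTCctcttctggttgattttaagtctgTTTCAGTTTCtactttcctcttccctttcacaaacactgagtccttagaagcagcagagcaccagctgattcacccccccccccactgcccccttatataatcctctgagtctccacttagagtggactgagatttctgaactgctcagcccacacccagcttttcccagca

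AGGAAGT or its complement stood in 21.8% of the 536 promoters matched for the genes that rose, in 5.19% of the 674 for the genes that fell and in 10.4% of all 9809. The interferon core stood in 9.33%, 1.93% and 3.77% of the same 3 sets. Their mean GC content differed too, at 56.4%, 63.7% and 60.8%. Mmp12 and Ctss hold the ETS core on the reverse strand and Spp1 on the strand shown. Isg15 holds 3 interferon cores, which overlap one another, and Ifit3 holds 2, and Ctss and Spp1 hold 1 each. No match of one core shares a base with a match of the other. These matches describe the letters and not binding, and the part of base composition in the shares was not tested.

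Cholesterol export genes rose, and cholesterol synthesis genes stayed near the median of all genes. Of 14 LXR targets and efflux genes 6 rose and 0 fell (median 0.67). Abcg1, the pump that moves cholesterol to HDL, was 7.34, 11.7 and 39.9 in the knockout and 1.38, 1.75 and 3.79 in wild type (2.36 ± 0.26, adjusted p = 0.00016). Abca1, the pump that loads apolipoprotein A-I, was 19.8, 23.5 and 38.5 in the knockout and 9.27, 11.8 and 15.3 in wild type (1.06 ± 0.13, adjusted p = 0.000366). Mylip, an LXR-induced ubiquitin ligase that limits lipoprotein uptake, was 20.3, 21.4 and 24.1 in the knockout and 12.0, 13.7 and 16.5 in wild type (0.61 ± 0.06, adjusted p = 6.84e-05). None of the 3 overlapped, and Mylip varied least among libraries. Nr1h3, the LXR-alpha receptor, rose by 0.89 ± 0.27 (adjusted p = 0.044, a call kept in 5 of the 16 fits without 1 library) and was highest in knockout replicate 1 and wild-type replicate 4. Of 24 genes of cholesterol synthesis and its regulator SREBP2, Ebp, a sterol isomerase, rose by 0.25 ± 0.06 and Srebf2, which encodes SREBP2, fell by 0.47 ± 0.11 (adjusted p = 0.0134 for both), and the list's median was -0.04.

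Adhesion genes of endothelium and leukocytes rose. Of 14 tested 9 rose and 0 fell (median 1.21), 4 of the 14 reached 1 in fewer than 5 wild-type libraries, and bulk tissue does not tell which cells held the transcripts. With the 5 list levels as covariates 5 rose, and with the clock components 0. Sele, the selectin of activated endothelium, was 1.59, 2.01 and 6.82 in the knockout and 0.0725, 0.162 and 0.507 in wild type (1.50 ± 0.18, adjusted p = 0.000351). It reached 1 in no wild-type library and so entered the test through the knockout, where it is high. Icam1, a ligand of leukocyte integrins, was 14.7, 17.0 and 40.6 in the knockout and 4.66, 8.53 and 12.3 in wild type (1.28 ± 0.22, adjusted p = 0.0036). Vcam1, the ligand of integrin alpha 4, was 44.1, 62.8 and 278 in the knockout and 20.7, 30.6 and 39.4 in wild type (1.45 ± 0.34, adjusted p = 0.0144). No knockout library overlapped a wild-type one in these 3 genes, and in Icam1 and Vcam1 knockout replicates 4 and 5, the libraries with the highest macrophage sums, were the highest. Of 15 endothelial identity genes 0 were called (median 0.40), and Nos3, the endothelial nitric oxide synthase, changed by 0.29 ± 0.35 (adjusted p = 0.577).

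Chemokines and their receptors rose in 16 of 23 cases and fell in 0 (median 1.27), but 13 of the 23 reached 1 in fewer than 5 wild-type libraries, and 4 rose with the 5 list levels as covariates. Ccl2, the main monocyte attractant, was 3.53, 7.34 and 32.4 in the knockout and 0.210, 0.640 and 8.76 in wild type (2.31 ± 0.48, adjusted p = 0.00802). Wild-type replicate 4 alone lay within the knockout range. Cxcl1, a neutrophil attractant, was 3.14, 5.42 and 55.2 in the knockout and 0.358, 0.553 and 2.02 in wild type without overlap (2.34 ± 0.42, adjusted p = 0.004). Cxcr4, the receptor of Cxcl12, rose by 1.27 ± 0.22 (adjusted p = 0.0036).

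Innate sensing and interleukin 1 genes rose together with their inhibitors. Of 10 inflammasome and interleukin 1 genes 9 rose and 0 fell (median 0.90), but 3 of the 10 reached 1 in fewer than 5 wild-type libraries, Il1a in none. With the 5 list levels as covariates 4 rose, and with the clock components 0. Il1rn, the interleukin 1 receptor antagonist, was 2.28, 3.90 and 25.0 in the knockout and 0.05, 0.166 and 1.59 in wild type (2.26 ± 0.36, adjusted p = 0.00231). Il18bp, the decoy of interleukin 18, was 5.94, 12.5 and 53.7 in the knockout and 1.65, 2.34 and 4.08 in wild type (2.18 ± 0.37, adjusted p = 0.003). Neither overlapped. Il1b, interleukin 1 beta, was low in both groups, at 0.514, 1.14 and 5.19 in the knockout and 0.0394, 0.253 and 1.28 in wild type (0.96 ± 0.29, adjusted p = 0.0421). Its groups overlapped through wild-type replicate 4, and the call was lost in 11 of the fits that left out 1 library.

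Every tested member of the C-type lectin and Fc receptor list rose, 14 of 14 (median 1.34), although 7 of the 14 reached 1 in fewer than 5 wild-type libraries. Clec7a, the beta-glucan receptor dectin-1, was 7.80, 20.2 and 94.6 in the knockout and 0.529, 0.701 and 2.83 in wild type (3.60 ± 0.38, adjusted p = 9.44e-05). Fcer1g, the signalling chain shared by these receptors, rose by 1.99 ± 0.33 (adjusted p = 0.00257). Of 10 toll-like receptor genes 5 rose, although 3 of the 10 reached 1 in fewer than 5 wild-type libraries. Among them Tlr13, a receptor for bacterial RNA, rose by 1.17 ± 0.27 (adjusted p = 0.0136). Of 17 complement genes 7 rose and 0 fell (median 0.68), among them C3ar1, the receptor for the C3a peptide, at 1.67 ± 0.30 (adjusted p = 0.0036), and C1qb, a chain of C1q, at 1.68 ± 0.35 (adjusted p = 0.00807).

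Interferon-induced genes were higher by smaller steps. Of 20 tested 10 rose and 0 fell (median 0.78), and 3 of the 20 reached 1 in fewer than 5 wild-type libraries. Isg15, a ubiquitin-like protein, was 7.40, 9.27 and 21.5 in the knockout and 2.43, 4.95 and 13.1 in wild type (0.99 ± 0.27, adjusted p = 0.0274). Ifit3, which binds foreign RNA with its partners, was 16.0, 21.5 and 49.5 in the knockout and 8.77, 13.2 and 23.1 in wild type (0.80 ± 0.25, adjusted p = 0.0459). Both overlapped, with wild-type replicate 4 highest of its group, and the list's calls varied with the fit. Without that library 18 of the 20 genes rose, against 11.8% of all genes. After median-of-ratios rescaling 7 rose, with 3 list levels as covariates 5, by the rank-sum test 3, and with 5 list levels or the clock components 0. Isg15 kept its call in 12 and Ifit3 in 5 of the 16 fits without 1 library. Their promoters are those printed above with interferon cores.

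Antigen presentation genes rose in 4 of 7 MHC class II cases (median 1.51), and 1 of the 7 reached 1 in fewer than 5 wild-type libraries. H2-Aa, an MHC class II alpha chain, was 123, 175 and 962 in the knockout and 36.6, 65.3 and 281 in wild type (1.57 ± 0.46, adjusted p = 0.036). Knockout replicate 5 was highest and wild-type replicate 4 lay above 6 of the knockout libraries. The call was kept in 9 of the 16 fits without 1 library, and 0 of the 7 genes were called with 5 list levels as covariates, with the clock components or by the rank-sum test. Lymphocyte transcripts were scarce in these libraries, and 15 of 20 T and NK cell genes did not reach the filter. Cd3e, a chain of the T cell receptor complex, was 0.105, 0.386 and 3.48 in the knockout and 0, 0.174 and 1.19 in wild type, highest in knockout replicate 5 and wild-type replicate 4. Cd247, another chain of that complex, rose by 0.70 ± 0.19 (adjusted p = 0.0297), a call kept in 7 of those 16 fits. All 5 tested T and NK cell genes, Cd247 among them, reached 1 in fewer than 5 wild-type libraries. They passed the filter only with the help of knockout libraries. Of 4 B cell genes Cd22, an inhibitory lectin, rose by 1.13 ± 0.24 (adjusted p = 0.00924), but the summed B cell genes were 9.79, 16.0 and 21.7 in the knockout and 4.31, 6.47 and 241 in wild type, the last in replicate 4. Of 3 neutrophil genes Csf3r, the receptor for G-CSF, rose by 1.02 ± 0.21 (adjusted p = 0.00756). Cd22 and Csf3r, each the single call of its list, reached 1 in no wild-type library and so entered the test through the knockout, where they are high. Of 7 mast cell and 6 red cell genes 0 were called. Proliferation genes were low, and of 17 cell cycle genes Cdc20 rose by 0.44 ± 0.12 (adjusted p = 0.0291) and Cdk1 by 0.61 ± 0.19 (adjusted p = 0.0496), both needed for mitosis, with calls kept in 11 and 5 of the fits without 1 library. Of these 17 genes 6 reached 1 in fewer than 5 wild-type libraries and 2 in fewer than 5 knockout libraries.

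**Figure D3:**
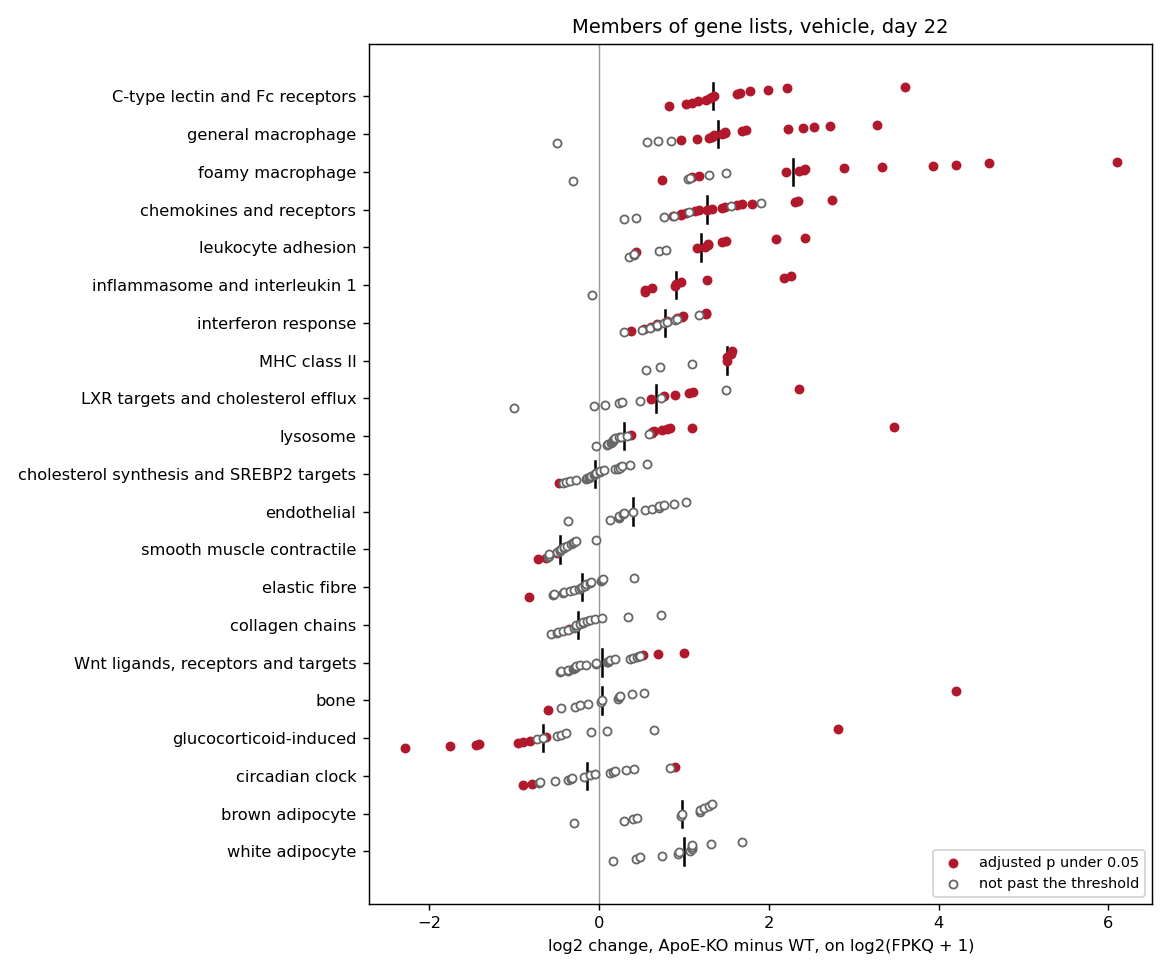
Log2 change, ApoE-KO minus WT, of the tested members of 21 gene lists; filled points have an adjusted p under 0.05, open points do not, and the black bar is the list median. Medians range from 2.28 for foamy macrophage genes to -0.66 for glucocorticoid-induced genes, with smooth muscle contractile genes at -0.45.

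Glucocorticoid-induced genes were among those that fell most, with Errfi1 next after Apoe. Glucocorticoid hormone, released on a daily rhythm and in stress, acts through a receptor that switches on these genes within hours. Of 17 tested 8 fell and Lcn2 alone rose, and the median was -0.66. Errfi1, which curbs EGF receptor signalling, was 17.1, 29.4 and 55.2 in the knockout and 66.7, 150 and 312 in wild type (-2.29 ± 0.31, adjusted p = 0.000975). Tsc22d3, the glucocorticoid-induced leucine zipper, was 39.2, 58.4 and 91 in the knockout and 97.5, 107.5 and 143 in wild type (-0.96 ± 0.14, adjusted p = 0.00154). Klf9, a zinc finger factor that the receptor induces, was 30.4, 53.7 and 64.7 in the knockout and 74.1, 88.1 and 119.3 in wild type (-0.81 ± 0.14, adjusted p = 0.0036). The genotypes did not overlap in any of these 3. Ddit4, an inhibitor of mTOR, was 8.61, 13.1 and 19.5 in the knockout and 19.3, 54.9 and 125.5 in wild type (-1.76 ± 0.30, adjusted p = 0.00292), with wild-type replicate 2 just inside the knockout range.

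Fkbp5 and Zbtb16 varied more within each genotype. Fkbp5, a co-chaperone of the glucocorticoid receptor, was 11.8, 62.9 and 163 in the knockout and 62.4, 136 and 266 in wild type (-1.45 ± 0.45, adjusted p = 0.0471), and 12 of the 16 fits without 1 library did not call it. Zbtb16, a transcription factor with strong hormone response, was 3.04, 23.5 and 40.98 in the knockout and 34.3, 56.9 and 70.9 in wild type (-1.41 ± 0.37, adjusted p = 0.0238). In both the groups overlapped, and knockout replicate 2 was lowest. Among the genes with the largest decreases outside the list were Arrdc2, an arrestin-domain protein (-1.77 ± 0.27, adjusted p = 0.00174), and Trp53inp1, a p53-induced stress protein (-1.60 ± 0.29, adjusted p = 0.00413). Slc45a3, a sugar transporter, changed by -1.55 ± 0.24 (adjusted p = 0.00174), Zdhhc23, a palmitoyl transferase, by -1.52 ± 0.25 (adjusted p = 0.00238) and Fam46b by -1.41 ± 0.24 (adjusted p = 0.00355). Of 17 immediate early genes Btg2, which slows cell division, fell by 0.73 ± 0.14 and Zfp36, which destabilizes cytokine mRNAs, by 0.60 ± 0.12. Of 20 heat shock and ER stress genes 0 were called (median -0.14).

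Clock genes were called in both directions. Of 18 tested 1 rose and 2 fell (median -0.14), against 5.42% higher and 6.54% lower over all genes. Per1, a clock repressor that glucocorticoid also induces and that both lists hold, was 9.80, 16.8 and 26.2 in the knockout and 18.2, 33.7 and 46.9 in wild type (-0.90 ± 0.19, adjusted p = 0.00812). Bhlhe40, another clock repressor, was 23.98, 30.99 and 47.9 in the knockout and 12.4, 14.6 and 23.7 in wild type (0.89 ± 0.16, adjusted p = 0.00439). Per1 overlapped between genotypes and Bhlhe40 did not. Nfil3, a repressor of clock output, fell by 0.79 ± 0.18 (adjusted p = 0.0126), and the other 15 of 18 clock genes were not called, among them Arntl (-0.70 ± 0.23, adjusted p = 0.0522) and Dbp (0.32 ± 0.25, adjusted p = 0.395). Without wild-type replicate 4, 7 clock genes fell and 1 rose, and 10 glucocorticoid-induced genes fell and 1 rose, against 18.0% lower and 11.8% higher over all genes. With 5 list levels as covariates 0 genes of either list were called, although the median changes were -0.19 for clock and -0.75 for glucocorticoid-induced genes. The hour of death of each animal is not in the labels. The second principal component of the 18 clock genes was -3.24 to -0.534 in 7 knockout libraries and 0.668 in knockout replicate 7, against 1.18 to 3.58 in 7 wild-type libraries and -3.31 in wild-type replicate 4. With 2 such components in the model 9 genes were called (0.0681%), Errfi1 changed by -1.11 (adjusted p = 0.335) and Fkbp5 by 0.36 (adjusted p = 0.778), so the genotype and what this component carries cannot be told apart in these libraries.

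The promoter of Per1 is shown for its E-box, the site CACGTG that clock activators bind, in capitals, from RefSeq build GRCm38.p6 at chr11:69098699-69098998 on the plus strand.
Per1: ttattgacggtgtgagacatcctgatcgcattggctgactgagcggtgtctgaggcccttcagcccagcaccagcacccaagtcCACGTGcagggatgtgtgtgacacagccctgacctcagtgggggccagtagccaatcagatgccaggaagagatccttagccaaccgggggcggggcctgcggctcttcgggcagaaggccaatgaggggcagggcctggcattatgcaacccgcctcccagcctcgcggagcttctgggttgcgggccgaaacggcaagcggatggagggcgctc

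CACGTG, whose complement is the same, stood in 9.33% of the promoters of genes that rose, in 12.3% of those of genes that fell and in 11.7% of all promoters matched.

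**Figure D4:**
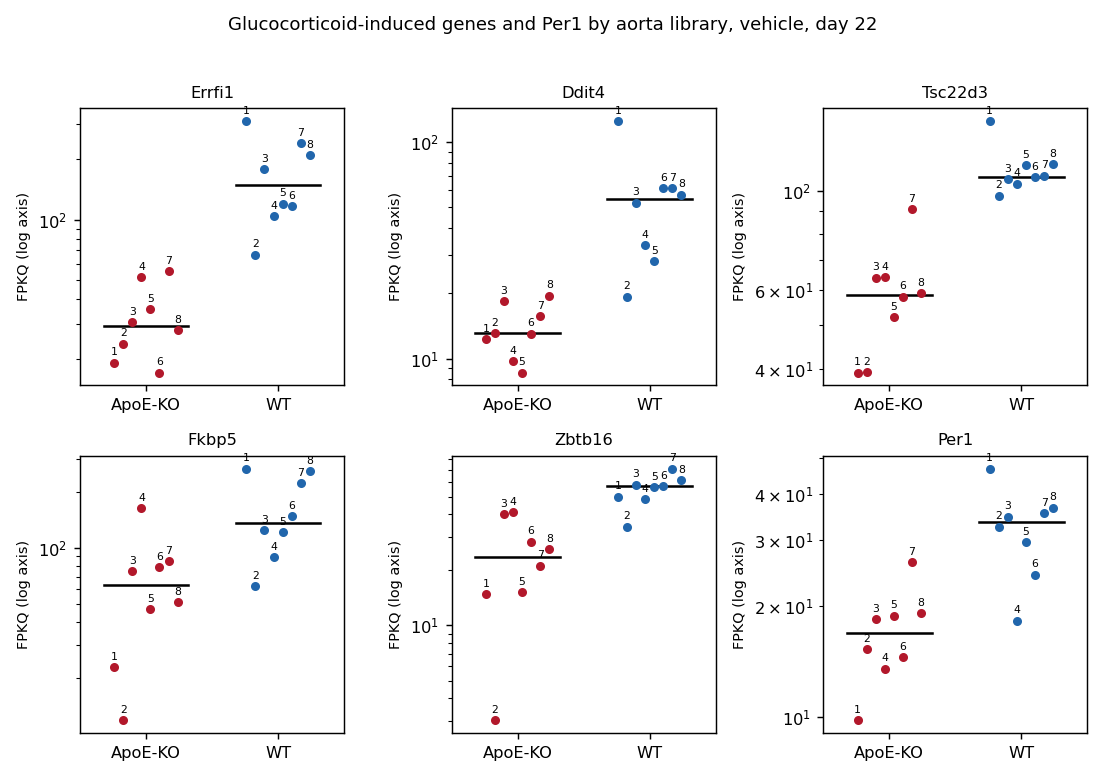
FPKQ of 5 glucocorticoid-induced genes and Per1 in each ApoE-KO (left) and WT (right) library on logarithmic axes, with replicate numbers and a bar at each group median. Errfi1 and Tsc22d3 are lower in every ApoE-KO library than in any WT library, whereas Ddit4, Fkbp5, Zbtb16 and Per1 overlap.

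Contractile genes of the media were lower in most knockout libraries, but most were not called. All 18 smooth muscle genes had a negative change (median -0.45) and 3 fell, against 6.54% lower over all genes. Acta2 was 3283, 5737 and 8411 in the knockout and 3133, 9165 and 9541 in wild type (-0.59 ± 0.25, adjusted p = 0.128). Wild-type replicate 4, at 3133, was the lowest library of all, and the other 7 wild-type libraries were at 7819 or above. Without that library Acta2 fell by 0.78 (adjusted p = 0.00669) and 14 of the 18 genes fell, against 18.0% of all genes. Myh11, the smooth muscle myosin heavy chain, changed by -0.41 ± 0.24 (adjusted p = 0.257), and fell by 0.60 without the same library (adjusted p = 0.0194). Ppp1r12b, a regulatory subunit of myosin phosphatase, was 54.6, 80.3 and 92.3 in the knockout and 55.7, 141 and 157 in wild type (-0.72 ± 0.18, adjusted p = 0.0203). Itga8, an integrin of contractile cells, fell by 0.62 ± 0.19 (adjusted p = 0.0454) and Tpm1, a tropomyosin, by 0.50 ± 0.14 (adjusted p = 0.0352). Ppp1r12b was called in all 16 fits without 1 library, but Tpm1 in 6 and Itga8 in 4. Knockout replicates 1 and 8, low in Acta2 at 3283 and 3293, and wild-type replicate 4 are also among the 4 libraries with the highest Myh6. Wild-type replicate 6, another of these, had a smooth muscle sum of 25361. Smooth muscle sums were lowest in wild-type replicate 4 (9816) and knockout replicates 1 (9834), 8 (11629) and 3 (12446). The same libraries had the highest brown adipocyte sums, at 4677, 7532, 3623 and 4596. The part of carried-over fat in the smooth muscle levels was not tested. Without the 4 libraries of high heart or thymus scores 10 of the 18 genes fell, against 11.3% of all genes, and Acta2 fell by 0.55 (adjusted p = 0.0188). Other fits called fewer, with 2 of the 18 lower with 3 list levels as covariates, 1 by the rank-sum test, and 0 with 5 list levels or with the clock components, where the list's median was 0.32.

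Matrix genes were called lower in 1 of 18 elastic fibre, 1 of 18 collagen and 1 of 14 proteoglycan cases. Over all genes 6.54% were called lower, so these counts were near the share elsewhere. Eln, which encodes elastin, was 313.5, 480 and 876 in the knockout and 400, 959 and 1640.1 in wild type (-0.82 ± 0.26, adjusted p = 0.0468), with the groups overlapping. It was 1 of 18 elastic fibre genes to be called (median -0.20), and 13 of the 16 fits without 1 library did not call it. Of 18 collagen genes Col4a1, a basement membrane chain, fell by 0.35 ± 0.10 (adjusted p = 0.0271), and of 14 proteoglycan genes Hspg2, perlecan, fell by 0.45 ± 0.14 (adjusted p = 0.0495), a call kept in 1 of those 16 fits. Col1a1, the main fibrillar collagen, changed by -0.22 ± 0.24 (adjusted p = 0.546). Of 12 adventitial fibroblast genes Ly6a, the stem cell antigen Sca-1, was 227, 258 and 418 in the knockout and 88.7, 127 and 294 in wild type (1.03 ± 0.20, adjusted p = 0.00606), with only wild-type replicate 4 inside the knockout range.

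Matrix proteases changed in both directions. Of 15 tested 3 rose and 2 fell. Of the 15, 2 reached 1 in fewer than 5 wild-type libraries, Mmp12 in none and Adam8 in replicate 4 alone. Both rose, and they entered the test through the knockout, where they are high. Adam8, a membrane protease of leukocytes, was 2.03, 4.54 and 17.4 in the knockout and 0.294, 0.457 and 1.50 in wild type without overlap (1.88 ± 0.29, adjusted p = 0.0018), and Mmp19 rose by 1.15 ± 0.27 (adjusted p = 0.0135). Adamts1, which cleaves versican, was 18.6, 34.7 and 48.4 in the knockout and 33.9, 74.99 and 100.5 in wild type (-1.07 ± 0.21, adjusted p = 0.00525), overlapping through wild-type replicate 4. Adamtsl4, a matrix protein of microfibrils, fell by 0.29 ± 0.07 (adjusted p = 0.0161).

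A small number of bone and Wnt genes were called at this age. Over all genes 12.0% were called, 5.42% higher and 6.54% lower, and these small counts were not tested against that share. Sost, the Wnt antagonist sclerostin, was 189, 293 and 433 in the knockout and 209, 415 and 630 in wild type (-0.45 ± 0.23, adjusted p = 0.203), and fell by 0.58 without wild-type replicate 4 (adjusted p = 0.0487). Axin2, a Wnt feedback gene, changed by 0.19 ± 0.18 (adjusted p = 0.49). Of 26 Wnt genes 3 rose and 0 fell, namely Dkk2, an antagonist of the LRP co-receptors (0.69 ± 0.17, adjusted p = 0.0172), the ligand Wnt11 (0.52 ± 0.13, adjusted p = 0.0223) and Sfrp4, a secreted Wnt-binding protein (1.0 ± 0.27, adjusted p = 0.0275). Of 13 bone genes Spp1 rose and Phex, a peptidase of mineralizing cells, fell by 0.60 ± 0.17 (adjusted p = 0.0339), a call kept in 8 of the 16 fits without 1 library. Runx2, the osteoblast transcription factor, did not reach the filter, at 0.383, 0.584 and 0.861 in the knockout and 0.135, 0.314 and 0.446 in wild type. Alpl, a phosphatase of mineralization, changed by 0.02 ± 0.15 (adjusted p = 0.948) and Mgp, an inhibitor of calcification, by 0.03 ± 0.28 (adjusted p = 0.951), and of 7 cartilage genes 0 were called.

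Genes near Apoe on chromosome 7 were called more often than the rest. Within 5 Mb of the gene 28 of 89 others were called (31.5%), 9 higher and 19 lower, against 29 of 253 (11.5%) at 5 to 20 Mb, 85 of 649 (13.1%) farther along the chromosome and 1418 of 11941 (11.9%) on other chromosomes. Gm45104, an unclassified transcript at -1295 kb from Apoe, was 2.97, 3.76 and 6.20 in the knockout and 0.0131, 0.0444 and 0.0860 in wild type (2.31 ± 0.12, adjusted p = 8.88e-09). Ercc2, a helicase of DNA repair at -300 kb from Apoe, was 3.83, 4.85 and 5.43 in the knockout and 6.56, 9.32 and 10.4 in wild type (-0.80 ± 0.08, adjusted p = 7.77e-05). Neither overlapped between genotypes, but Gm45104 reached 1 in no wild-type library and so entered the test through the knockout, where it is high. The kinesin light chain gene Klc3 (-1.13 ± 0.21, adjusted p = 0.00447) overlaps the end of Ercc2 on the other strand, and whether counting in that stretch used strand is not given in the labels. Bcam, a laminin receptor 57 kb after Apoe, fell by 1.17 ± 0.22 (adjusted p = 0.0043), and Bcl3, a cofactor of NF-kappaB 0.11 Mb after it, rose by 1.46 ± 0.31 (adjusted p = 0.00932). In both wild-type replicate 4, at 138.5 and 7.07, lay inside the knockout range. Of the other called genes within 2 Mb, Trappc6a (0.71 ± 0.13) and Bloc1s3 (0.20 ± 0.06) rose, and Sympk (-0.32 ± 0.07), Qpctl (-0.29 ± 0.08), Eml2 (-0.50 ± 0.16) and Cd3eap (-0.28 ± 0.08) fell, at adjusted p between 0.0036 and 0.0491. Trappc6a and Sympk were called in all 16 fits without 1 library, Qpctl in 12, Cd3eap in 4, Bloc1s3 in 3 and Eml2 in 2.

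The same stretch was set against the other genotype comparisons of the study. Within 5 Mb of Apoe 19.1% of genes were called between knockout and wild-type mice given Scl-Ab, the sclerostin antibody, for the same 3 weeks, against 6.17% on other chromosomes. Under vehicle the shares were 32.6% and 13.2% on day57 and 56.2% and 46.2% on day113. The genes Slc1a5, 9330104G04Rik, Pnmal2, Gm45104, Ercc2, Zfp93, Zfp94 and Smg9 of this stretch were called in all 4 comparisons, which share no animal. Of them 3 were higher and 5 lower, among 89, against 331 higher and 4 lower among 11941 on other chromosomes. Over all genes 2.77% were higher and 0.0832% lower in all 4, so the share of higher genes was near that elsewhere. Strain sequence carried along with the knockout allele and an effect of the lost gene cannot be told apart here.

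**Figure D5:**
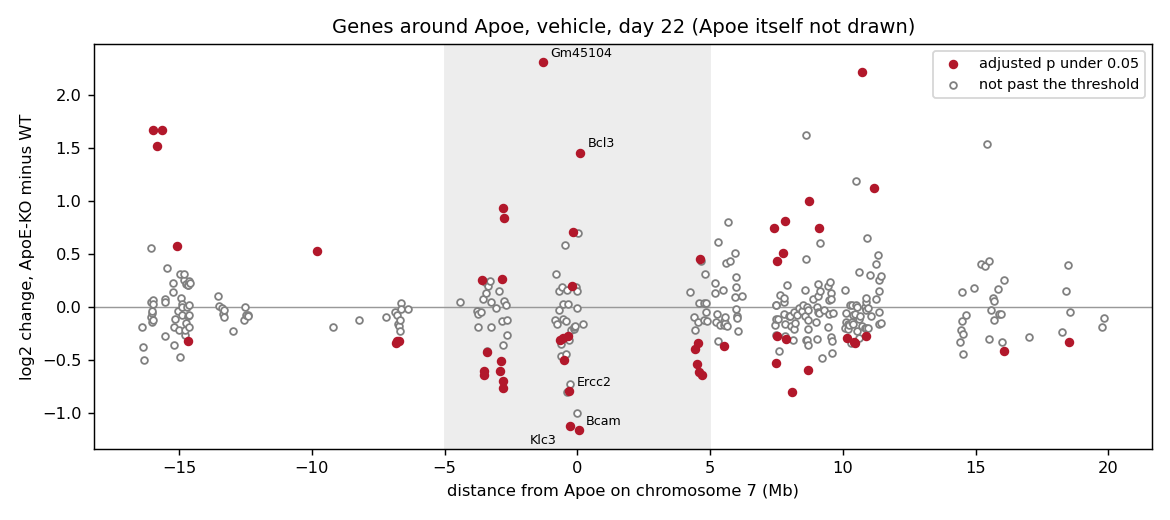
Log2 change, ApoE-KO minus WT, of genes tested within 20 Mb of Apoe on chromosome 7 against distance from it in Mb; filled points were called, the grey band spans 5 Mb on either side, and Apoe itself is not drawn. Called genes are denser in the band, 28 of 89, than outside it, 29 of 253, with Gm45104 the highest at 2.31.

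Mice given Scl-Ab for the same 3 weeks, 9 knockout and 6 wild-type, shared no animal with these libraries. In them 819 genes were called (6.20%), and Cd5l rose by 6.69 ± 0.31 (adjusted p = 2.83e-09), Mmp12 by 5.40 ± 0.30 (adjusted p = 3.29e-08), Trem2 by 4.04 ± 0.28, Abcg1 by 2.43 ± 0.20 and Icam1 by 1.03 ± 0.17 (adjusted p = 0.00118). Trem2 was 16.2, 30.8 and 84 in knockout and 0.912, 1.33 and 1.51 in wild-type libraries with Scl-Ab. Of the glucocorticoid-induced genes Errfi1 was at -0.15 ± 0.31 (adjusted p = 0.774), Ddit4 at -0.78 ± 0.29 (adjusted p = 0.118) and Klf9 at -0.85 ± 0.23 (adjusted p = 0.038). Eln was at 0.92 ± 0.38 (adjusted p = 0.139) and Ucp1 at -2.21 ± 0.72 (adjusted p = 0.0832). A limma test of the difference between the genotype effects with Scl-Ab and with vehicle called 0 of 13217 genes, with 3074 at an unadjusted p under 0.05, whereas 2652 were called when every library of the series entered the fit. Errfi1 had a difference of 2.13 ± 0.46 (adjusted p = 0.105) and Eln one of 1.74 ± 0.46 (adjusted p = 0.149).

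The genotype effect of week 3 was set against those of later vehicle groups, 10 knockout and 5 wild-type on day57 and 10 of each on day113, where age, day and any sequencing batch cannot be told apart. Their own genotype comparisons called 1736 genes on day57 (13.1%) and 6051 on day113 (45.8%). From day 22 to day57 it differed for 4 genes (0.0303%), all upward, namely Adam8 by 1.60 ± 0.33 (adjusted p = 0.0402), the serotonin receptor Htr2b by 1.31 ± 0.21 (adjusted p = 0.0022), Mamdc2 by 0.81 ± 0.16 (adjusted p = 0.0252) and Adamtsl4 by 0.44 ± 0.08 (adjusted p = 0.0241). Adamtsl4 went from a called decrease of -0.29 on day 22 to 0.15 ± 0.07 on day57, which was not called (adjusted p = 0.174). From day 22 to day113 it differed for 356 genes (2.69%), 264 upward and 92 downward. Among the 5 largest upward differences were those of Chad, chondroadherin of cartilage, at 4.26 ± 0.66 (adjusted p = 0.000129) and Prg4, the joint lubricant lubricin, at 2.36 ± 0.41 (adjusted p = 0.0004). Their changes in week 3 were -0.27 and 1.49. Spp1 differed by 3.91 ± 0.86 (adjusted p = 0.00588), Anxa8, an annexin, by 3.02 ± 0.34 (adjusted p = 1.13e-07) and Lcn2 by 2.95 ± 0.56 (adjusted p = 0.00156). Alpl, with no call in week 3, differed by 1.37 ± 0.27 (adjusted p = 0.00212), and Col1a1 by 1.04 ± 0.23 (adjusted p = 0.00612). Of the foam cell genes Trem2 differed by 1.91 ± 0.39 (adjusted p = 0.00337) and Mmp12 by 1.99 ± 0.42 (adjusted p = 0.00449). Downward differences were led by Klk10, a kallikrein protease (-1.87 ± 0.53, adjusted p = 0.0391), Retnla, a marker of alternatively activated macrophages (-1.76 ± 0.49, adjusted p = 0.0375), Nnat, neuronatin (-1.72 ± 0.40, adjusted p = 0.00949), Pon1, an HDL-bound esterase (-1.52 ± 0.44, adjusted p = 0.0441), and Lep, the fat hormone leptin (-1.50 ± 0.41, adjusted p = 0.0332). Sele and Icam1, raised in week 3, had differences of 0.21 ± 0.26 (adjusted p = 0.723) and -0.19 ± 0.27 (adjusted p = 0.761), and their own changes on day113 were 1.71 ± 0.13 and 1.08 ± 0.16.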

How the data were processed

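RNA from the aortic arch of 1 animal per library was sequenced with a stranded poly(A) protocol, from samples with an RIN of at least 7 and at least 80 ng, per the labels' protocols. The values the authors deposited are FPKQ, an FPKM-type level per gene symbol (51456 symbols per file) that does not sum to a fixed total and that the labels do not define. GRCm38 and DESeq2 1.10.1 are named in the submitters' processing notes, and the sources used here do not give the aligner, annotation or use of strand. Depth in reads is unknown, so no counting interval is given, and its relative size was read from values under 0.3. The study text mentions 3 sequencing batches without assigning libraries to them.

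Levels were taken as log2(FPKQ + 1) for the 13217 genes at 1 or more in at least 5 of the 16 libraries, with the groups taken from the labels, and compared with limma 3.58.1 (R 4.3.3, trend and robust) over 2 groups of 8. Differences between days came from a limma fit over every vehicle group of the series. The difference between Scl-Ab and vehicle came from a limma fit over the 4 groups concerned. For each difference p was adjusted over all 13217 genes. p-values set a difference of group means against the spread between libraries, each of 1 animal, and this spread includes tissue carried over. The members and lists (44 lists, 714 entries) were chosen with earlier results of these data known. Genes named are a fixed set, the 10 called genes with the highest and the 10 with the lowest change, for each list the 5 called members of lowest adjusted p or fewer, all called genes within 2 Mb of Apoe and the 5 most different of each difference between comparisons. Predicted genes and pseudogenes were left out of the ranking by change, and Clec7a, a polymorphic pseudogene in GENCODE M21, is named as a list member. A few genes that this rule names are not reported here. The Apoe stretch genes called in all 4 comparisons were chosen after their values were seen. Of the tested symbols 12933 (97.9%) matched 1 GENCODE M21 gene, and 9809 matched a RefSeq promoter. Alternatives covered the offset, the filter, scaling, weights, the samples in the fit, carry-over and clock covariates, the test, the replicate number as a block and leaving out each library. Figures were drawn with matplotlib 3.10.9.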

Additional observations from a re-analysis of the deposited data

Results flagged for a closer look

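Single libraries stood far from the rest of their group in 36 of 214 sets of 8 values, measured by the gap to the nearest other library as a share of the group's range on the log2 scale. Chance flags about 1 in 20 such groups. Knockout replicate 4 was far above its group in Trem2 (84.3), Lcn2 (159.6), Cxcl1 (55.2), Sele (6.82) and Mmp19 (31.6), and knockout replicate 5 in Cd3e (3.48). Knockout replicate 1 was far below in Lyve1 (11.7) and Adamtsl4 (8.00), knockout replicate 2 was far below in Zbtb16 (3.04) and knockout replicate 7 was far above in Arrdc2 (11.9). Wild-type replicate 6 was far below in Lyve1 (10.2) and wild-type replicate 1 far above in Tsc22d3 (143).

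Wild-type replicate 4 accounted for 24 of the 36. It was far above the other wild-type libraries in Ccl8 (33.5), Abcg1 (3.79), Ccl2 (8.76), Il1b (1.28), Il1rn (1.59), Isg15 (13.1), Cd22 (0.836), Adam8 (1.50) and Bcl3 (7.07). It was far below them in Cd9 (215), Fam46b (5.84), Dbp (37.8), Acta2 (3133), Myh11 (326), Ppp1r12b (55.7), Itga8 (294.5) and Col4a1 (122). The same held for Hspg2 (44.6), Adamts1 (33.9), Mgp (2368), Phex (1.74), Eml2 (13.8), Klc3 (2.56) and Bcam (138.5).

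The knockout effect differed between day57 and day 22, by the limma test of that difference, for Adam8 (1.60), Adamtsl4 (0.44), Htr2b (1.31) and Mamdc2 (0.81). Between day113 and day 22 it differed upward for the macrophage and export genes Mmp12 (1.99), Spp1 (3.91), Trem2 (1.91), Gpnmb (1.83), Atp6v0d2 (1.43), Itgax (1.49), Lcn2 (2.95) and Abcg1 (1.09). It also did so for Cxcr4 (1.26), Il1rn (1.75), C3ar1 (1.36), Tlr13 (1.31), Cd22 (1.04), Tsc22d3 (1.08), Slc45a3 (1.24), Col1a1 (1.04), Adam8 (1.90), Mmp19 (1.07), Adamtsl4 (0.29) and Alpl (1.37). Further upward differences were those of Htr2b (1.34), Mamdc2 (0.86), Chad (4.26), Anxa8 (3.02) and Prg4 (2.36). Downward differences were those of Klk10 (-1.87), Retnla (-1.76), Nnat (-1.72), Pon1 (-1.52) and Lep (-1.50). Both differences use the day 22 libraries, wild-type replicate 4 among them.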

How the results depend on the processing

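The 1580 calls became 927 with no filter on low values, 3443 with every library of the series in the fit, 6444 with array weights, 23 against a minimum change of 1.5-fold, 932 by an exact rank-sum test, 248 with 5 carry-over scores, 9 with 2 components of the clock genes, 990 with the run of animal numbers as a block and 2615 without the libraries of high carry-over. The fit with the run of animal numbers also left out knockout replicate 8, and without that library alone 1127 genes were called. Leaving out each library gave 837 to 3935. The cause of these shifts was not tested. The animals' replicate numbers did not pair the groups, since same-numbered libraries correlated from -0.436 to 0.503 and 2 of 8 knockout libraries correlated best with their own number, and with that number as a block 1223 genes were called. The difference between day57 and day 22 went from 4 genes to 2 with an offset of 0.1, 25 with every library of the series and 2 with 5 scores, that between day113 and day 22 from 356 to 151 with 5 scores, and that between Scl-Ab and vehicle from 0 to 2652 with every library of the series.

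Abcg1, Cd5l, Atp6v0d2, Gm45104, Apoe and Mmp12 were called under all 33 settings. Of the 87 called genes among those named, 64 were called in all 16 fits without 1 library. Changes of the opposite sign appeared with the clock components for Cd36 (-1.20), Fabp4 (-1.53), Cd9 (0.36), Nr1h3 (-0.27), Fkbp5 (0.36), Arntl (0.018), Acta2 (0.31), Myh11 (0.39), Ppp1r12b (0.10), Itga8 (0.15), Eln (0.16), Col1a1 (0.35), Sost (0.077), Axin2 (-0.52), Wnt11 (-0.10), Alpl (-0.12), Ucp1 (-1.98), Adipoq (-1.45) and Eml2 (0.094). With 5 scores they appeared for Axin2 (-0.13), Ucp1 (-0.080) and Adipoq (-0.076), and with 3 scores for Ucp1 (-0.017) and Myh6 (0.20). Ucp1, Adipoq and Myh6 are members of the lists that gave these scores, and Arntl is 1 of the 18 clock genes. Such fits adjust each of them for a level that holds the gene itself, so their signs there cannot be read. Mgp was -0.042 after quantile normalization, -0.092 with array weights and -0.045 without the libraries of high carry-over, and Myh6 was 0.76 with array weights and 0.23 without those libraries. Leaving out each library gave -0.050 to 0.12 for Alpl, -0.17 to 0.16 for Mgp and -0.60 to 0.72 for Myh6.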
